A study of Danio rerio with 6 samples.

Results

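The retinoid visual cycle was followed through 10 genes in RNA-seq of dissected zebrafish heads, all of them among the 32520 genes listed for each sample. The genes were taken by name, namely *rpe65a*, *rpe65b*, *rlbp1a*, *rlbp1b*, *rdh5*, *rdh8a*, *rdh8b*, *rbp3*, *rbp4l* and *rgra*, and each name had a single entry. They were set in groups by the cells in which they are known to act. The pigment epithelium group held 4 genes (*rpe65a*, *rlbp1b*, *rdh5* and *rgra*), the Müller glia group held 1 gene (*rlbp1a*) and the photoreceptor group held 3 genes (*rdh8a*, *rdh8b* and *rbp3*). The remaining genes, *rpe65b* and *rbp4l*, were not assigned to a cell type. The *tulp1*-dKO samples came from AB-strain larvae at 4 dpf (days post-fertilization) that carry CRISPR-Cas9 frameshift mutations in both *tulp1a* and *tulp1b*, bred by crossing 1 mutant line of each gene. The wt samples came from AB-strain larvae of the same age without these mutations. The methods of the study do not say whether these were siblings of the *tulp1*-dKO larvae or were collected with them. A difference of line or collection can therefore not be told apart from that of genotype. Each group had 3 samples. The sources used here do not say how many heads or clutches went into a sample, so the p-values measure the spread between these samples, which may be technical.

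Vision depends on the constant renewal of 11-cis-retinal, the light-absorbing partner of opsins. Light turns it into all-trans-retinal, which is reduced to retinol in the photoreceptor, carried to the pigment epithelium, esterified, isomerised back to the 11-cis form, oxidised and returned. Cones can also draw chromophore from a route through Müller glia. The cycle is therefore split between neighbouring cells, and its genes report on the photoreceptors and on their support cells. Whole heads hold these cells beside brain, skin, muscle, the pineal gland and other tissues. In such bulk samples, fewer cells of a type and less RNA per cell cannot be told apart.

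Expression was deposited as TPM, transcript abundance scaled to the library total and corrected for gene length, so the levels of different genes can be compared. TPM holds no sequencing depth, and how many reads stand behind each level is unknown. The TPM of the listed genes summed to between 945753 and 948860 in *tulp1*-dKO samples and to between 945666 and 947332 in wt samples. The targeted genes served as a check of the labels. *tulp1a* was at 16.0, 14.4 and 15.8 TPM in *tulp1*-dKO samples, against 25.3, 24.98 and 23.7 TPM in wt samples, and *tulp1b* was at 2.71, 2.01 and 2.37 TPM, against 13.1, 11.9 and 9.77 TPM. Both were lower in every *tulp1*-dKO sample. The log2 fold change was −2.25 for *tulp1b* (limma adjusted p = 0.0024) and −0.68 for *tulp1a* (limma adjusted p = 0.0201), the latter under the 2-fold threshold given below. The limma adjusted p of *tulp1a* stayed at or under 0.05 in 12 of 17 alternatives of the fit and reached 0.104.

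Of the 10 visual cycle genes, 1 gene, *rbp3*, fell in *tulp1*-dKO heads and none rose. A gene was called at a limma adjusted p of at most 0.05 (Benjamini-Hochberg over the 22824 genes tested) and a change of at least 2-fold, the thresholds of the study. By this rule 0.96% of all genes tested were called lower and 0.364% were called higher. All 10 genes passed the filter on low values. Of them, 3 (*rbp3*, *rbp4l* and *rlbp1a*) had an unadjusted limma p of at most 0.05 (30%, against 17.1% of all genes tested). The groups were fully separate for 3 genes that lay lower in *tulp1*-dKO samples (*rbp3*, *rbp4l* and *rlbp1a*) and for 1 gene that lay higher (*rpe65b*), where 8.86% of all genes tested lay wholly below and 14.6% wholly above wt. The median log2 fold change of the 10 genes was −0.23, where that of all genes tested was 0.05.

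**Figure D1:**
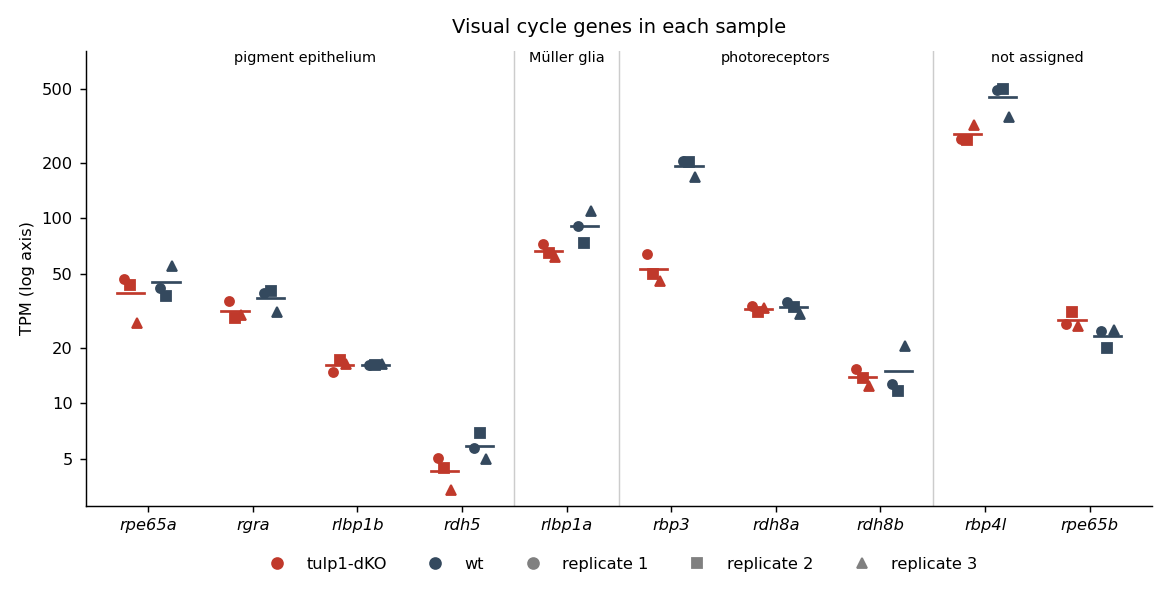
TPM (log axis) of the 10 visual cycle genes in each *tulp1*-dKO (red) and wt (dark) sample, with the replicate number as the symbol and the group mean as a line. *rbp3* stands apart, at 45.8 to 63.8 TPM in *tulp1*-dKO samples and 168 to 203 TPM in wt samples. The other genes set in the photoreceptor group, *rdh8a* and *rdh8b*, overlap between the groups.

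The genes set in the photoreceptor group did not move together. *rbp3* (ENSDARG00000059163) encodes the interphotoreceptor retinoid-binding protein, which photoreceptors secrete and which carries retinoids across the space between them and the pigment epithelium. Its mRNA level was 63.8, 50.1 and 45.8 TPM in *tulp1*-dKO samples 1, 2 and 3, against 203, 201 and 168 TPM in wt samples 1, 2 and 3. Every *tulp1*-dKO value lay far below every wt value. The mean of 53.2 ± 9.41 TPM in *tulp1*-dKO heads was 27.9% of the 191 ± 19.9 TPM in wt heads (SD, n = 3 each). The log2 fold change was −1.85 (SE 0.14, 95% interval −2.18 to −1.51, limma adjusted p = 0.0024).

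*rdh8a* and *rdh8b* encode copies of retinol dehydrogenase 8, the outer segment enzyme that reduces all-trans-retinal to retinol after bleaching. *rdh8a* (ENSDARG00000028048) was at 33.5, 31.0 and 32.5 TPM in *tulp1*-dKO samples, against 35.5, 33.0 and 30.6 TPM in wt samples. The groups overlapped, and the mean in *tulp1*-dKO heads was 98.0% of that in wt heads. Its log2 fold change of −0.03 (SE 0.09, limma adjusted p = 0.919) had a 95% interval of −0.25 to 0.19, so a 2-fold change in either direction lay outside the interval. *rdh8b* (ENSDARG00000105060) was less abundant, at 15.3, 13.8 and 12.4 TPM in *tulp1*-dKO samples, against 12.8, 11.7 and 20.4 TPM in wt samples. Its groups also overlapped, and wt sample 3 was the highest of the 6. The log2 fold change of *rdh8b* was −0.07 (SE 0.22, 95% interval −0.58 to 0.44, limma adjusted p = 0.909), and it was 0.17 without wt sample 3. A further entry listed in capitals as *RDH8* (ENSDARG00000099217), which the choice by name does not include, was seen after the values were known, at 5.09, 6.83 and 5.40 TPM in *tulp1*-dKO samples, against 6.87, 7.88 and 7.29 TPM in wt samples. How reads were shared among these related genes was not measured here. How much of the *rbp3*, *rdh8a* and *rdh8b* levels in whole heads came from photoreceptors was not measured either.

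These genes were set beside rod and cone markers that are not part of the cycle. Of 26 such markers tested, 18 were called lower in *tulp1*-dKO samples, none was called higher, and their median log2 fold change was −1.68. The number called lower moved with single samples, to 9 without wt sample 1, 10 without wt sample 2 and 11 without *tulp1*-dKO sample 2, while the median stayed between −1.84 and −1.36 with any 1 sample left out. The rod markers summed to between 422 and 732 TPM in *tulp1*-dKO samples, against 2401 to 2823 TPM in wt samples, and the cone markers to between 3510 and 6527 TPM, against 17040 to 17639 TPM. *tulp1*-dKO sample 3 had the lowest sum of both lists. Among the rod markers the rod opsin gene *rho* made the largest part of the sum, at 184 to 423 TPM in *tulp1*-dKO samples and 1625 to 2086 TPM in wt samples. The genes called included *rho*, the rod opsin, with a log2 fold change of −2.76, *gnat1*, rod transducin, at −3.04, *opn1sw1*, the ultraviolet cone opsin, at −2.39, and *gnat2*, cone transducin, at −1.99 (limma adjusted p of 0.00601, 0.000235, 0.00126 and 0.0192 in that order). The limma adjusted p of *gnat2* reached 0.0813 and stayed at or under 0.05 in 11 of 17 alternatives, and that of the others did so in all 17. The fall was not shared by every marker. *gngt2a*, a cone transducin gamma subunit, was at 140, 126 and 148 TPM in *tulp1*-dKO samples, against 73.9, 74.0 and 40.8 TPM in wt samples, and *nrl*, a rod transcription factor, overlapped between the groups with 2.17 to 3.61 TPM in *tulp1*-dKO samples and 2.35 to 4.22 TPM in wt samples. The rod marker *gnb1b* also overlapped between the groups, at 122 to 149 TPM in *tulp1*-dKO samples and 141 to 158 TPM in wt samples. *gngt2a*, *nrl* and *gnb1b* were named after their values were seen, and none of them was called.

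Each gene was then compared with these markers within a sample, as the difference between its log2(TPM + 0.1) and the median of the 26 markers. For *rdh8a* this difference was −1.96, −1.89 and −1.05 in *tulp1*-dKO samples, against −2.63, −2.69 and −2.60 in wt samples. All *tulp1*-dKO values were higher than all wt values, by 1.01 on average (exact permutation test, two-sided, p = 0.1, adjusted over 7 differences p = 0.233). For *rdh8b* the *tulp1*-dKO values were higher by 0.97 on average, again without overlap (exact permutation test, p = 0.1, adjusted p = 0.233). With 3 samples against 3, this test cannot give a p below 0.1. The marker median itself was lower by 1.04 in *tulp1*-dKO samples, while *rdh8a* and *rdh8b* changed by −0.03 and −0.07. These differences therefore restate the fall of the markers and are no further evidence on either gene. The difference between the log2 levels of *rdh8a* and *rdh8b* was 1.22 ± 0.14 in *tulp1*-dKO samples and 1.18 ± 0.52 in wt samples (SD, n = 3 each, exact permutation test, p = 1).

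The place of *rbp3* among the markers depended on how their median was taken. Against the median level of the markers, *rbp3* was lower in *tulp1*-dKO samples by 0.81 on the log2 scale than in wt samples (exact permutation test, p = 0.1, adjusted p = 0.233). The median level can fall on another marker in another sample, and it was lower by only 1.04 in *tulp1*-dKO samples. With each marker taken relative to its own wt mean, an alternative added with the data in view, the marker median lay at −1.35, −1.38 and −2.20 in *tulp1*-dKO samples and *rbp3* lay at −1.57, −1.92 and −2.05. The difference was then −0.20 with overlap between the groups (exact permutation test, p = 0.5). On the same scale the excess of *rdh8a* over the markers was 1.62 and that of *rdh8b* was 1.58 (exact permutation test, p = 0.1 each). With both genes near their wt means, these values again restate the fall of the marker median, −1.64 on average in *tulp1*-dKO samples.

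**Figure D2:**
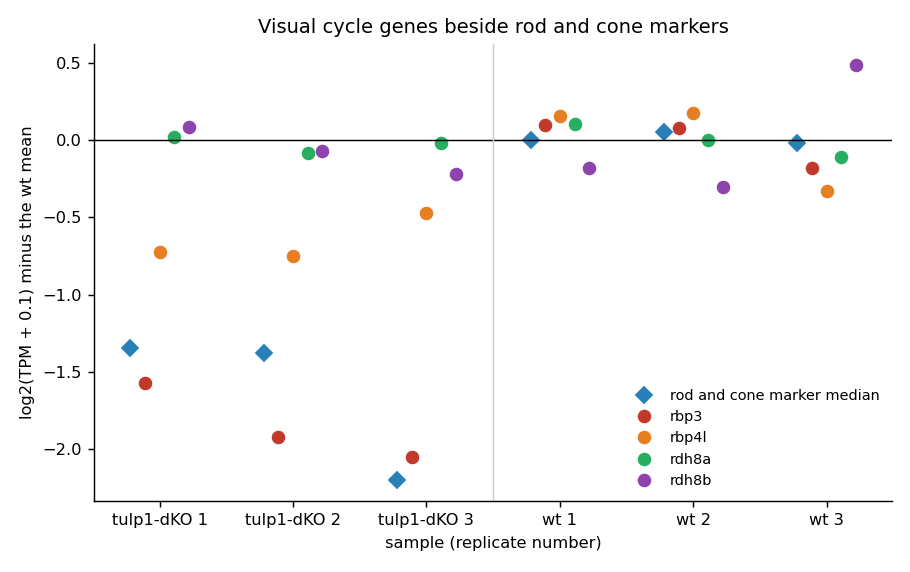
Deviation of each gene from its own wt mean, log2(TPM + 0.1), in the 6 samples, with the median deviation of 26 rod and cone markers as diamonds. In *tulp1*-dKO samples *rbp3* lies between −1.57 and −2.05, near the marker median, *rbp4l* lies between −0.47 and −0.75, and *rdh8a* and *rdh8b* lie between −0.22 and 0.08. This scale was added with the data in view. By the planned measure, the median level of the markers, *rbp3* was lower by 0.81 without overlap and *rbp4l* higher by 0.39 with overlap.

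*rbp4l* (ENSDARG00000044684), named for its likeness to the plasma retinol carrier gene *rbp4*, had the highest level of the 10 genes in both groups. It was at 269, 264 and 321 TPM in *tulp1*-dKO samples, against 494, 503 and 353 TPM in wt samples. The groups did not overlap, but *tulp1*-dKO sample 3 and wt sample 3 lay close to each other. The log2 fold change of −0.65 (SE 0.15, 95% interval −1.0 to −0.29, limma adjusted p = 0.0935) did not pass the test. Without wt sample 3 it was −0.81 with a limma adjusted p of 0.0288, the lowest of 17 alternatives, which reached 0.262, and no alternative brought it to a 2-fold change. The gene lay above the marker median by 1.05, 1.2 and 2.25 in *tulp1*-dKO samples, against 1.16, 1.23 and 0.92 in wt samples, a difference of 0.39 with overlap between the groups (exact permutation test, p = 0.5). With each marker taken relative to its own wt mean these values were 0.62, 0.63 and 1.73 in *tulp1*-dKO samples, against 0.16, 0.13 and −0.31 in wt samples, without overlap (exact permutation test, p = 0.1).

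None of the 4 pigment epithelium genes was called, and the groups overlapped for each of them. Their log2 fold changes lay between −0.46 and −0.01, with a median of −0.23. *rpe65a* (ENSDARG00000007480), the isomerohydrolase that turns retinyl esters into 11-cis-retinol, was at 47.2, 43.7 and 27.3 TPM in *tulp1*-dKO samples, against 42.1, 38.1 and 55.0 TPM in wt samples. *tulp1*-dKO sample 3 was the lowest of the 6 and wt sample 3 the highest. The log2 fold change was −0.22 (SE 0.23, 95% interval −0.76 to 0.33, limma adjusted p = 0.694), and it was 0.03 without *tulp1*-dKO sample 3.

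*rlbp1b* (ENSDARG00000045808) encodes the pigment epithelium copy of CRALBP, which binds 11-cis-retinoids and shields them during the cycle. It was at 14.8, 17.1 and 16.4 TPM in *tulp1*-dKO samples, against 16.1, 16.2 and 16.3 TPM in wt samples. The wt values differed from each other by less than those of any other of the 10 genes, with a coefficient of variation of 0.472%. The *tulp1*-dKO values lay on both sides of these wt values. The log2 fold change was −0.01 (SE 0.10, 95% interval −0.24 to 0.22, limma adjusted p = 0.976).

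*rgra* (ENSDARG00000054890) encodes an opsin of support cells that isomerises all-trans-retinal in light. Its level was 35.6, 28.9 and 29.9 TPM in *tulp1*-dKO samples, against 39.5, 40.6 and 31.3 TPM in wt samples. Wt sample 3 lay among the *tulp1*-dKO values, and the log2 fold change was −0.24 (SE 0.14, 95% interval −0.56 to 0.08, limma adjusted p = 0.438). *rdh5* (ENSDARG00000008306), the dehydrogenase that oxidises 11-cis-retinol to 11-cis-retinal, had the lowest level of the 10 genes. It was at 5.04, 4.48 and 3.38 TPM in *tulp1*-dKO samples, against 5.76, 6.95 and 5.01 TPM in wt samples. The groups met at *tulp1*-dKO sample 1 and wt sample 3, and the log2 fold change of −0.46 (SE 0.20, 95% interval −0.93 to 0.01, limma adjusted p = 0.308) did not pass the test.

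Other genes of the pigment epithelium gave the setting for these values. None of 10 pigment synthesis genes was called, and they summed to between 181 and 234 TPM in *tulp1*-dKO samples, against 162 to 205 TPM in wt samples. These genes are also expressed in skin melanophores. In the list, *pmelb*, a melanosome matrix gene, was at 13.1, 11.7 and 14.7 TPM in *tulp1*-dKO samples, against 7.71, 8.30 and 8.25 TPM in wt samples, a log2 fold change of 0.69 (limma adjusted p = 0.043), under the 2-fold threshold. The limma adjusted p of *pmelb* stayed at or under 0.05 in 8 of 17 alternatives and reached 0.159. Of the other pigment epithelium markers none of 4 tested was called. Nearly all of their summed level was *serpinf1*, the gene of a secreted factor of this epithelium, at 53.7, 48.6 and 49.3 TPM in *tulp1*-dKO samples, against 47.1, 42.8 and 61.4 TPM in wt samples. How much of the *serpinf1* level in whole heads came from this epithelium was not measured. *best1*, a chloride channel that defines this epithelium, was at 0.33 to 1.18 TPM in *tulp1*-dKO samples and 0.22 to 1.09 TPM in wt samples. The lactate transporter *slc16a8* was also low, at 0.38, 1.33 and 0.68 TPM in *tulp1*-dKO samples, against 3.09, 2.58 and 1.17 TPM in wt samples (log2 fold change −1.45, SE 0.52, 95% interval −2.67 to −0.23, limma adjusted p = 0.218).

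**Figure D3:**
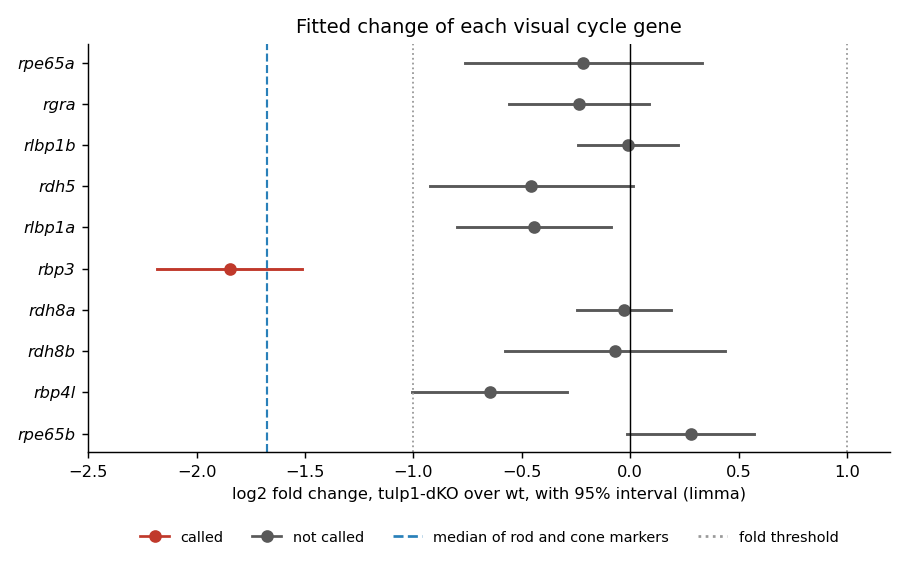
Log2 fold change of each visual cycle gene, *tulp1*-dKO over wt, with its 95% interval from limma, for 3 samples against 3. Only *rbp3* (red, −1.85) passes the 2-fold threshold drawn as a dotted line, near the median of the rod and cone markers (dashed line, −1.68), and the intervals of the 4 pigment epithelium genes include 0.

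*rlbp1a* (ENSDARG00000012504), the Müller glia copy of CRALBP, was at 72.6, 64.9 and 62.0 TPM in *tulp1*-dKO samples, against 91.4, 73.4 and 110 TPM in wt samples. All *tulp1*-dKO values were below all wt values, but *tulp1*-dKO sample 1 and wt sample 2 nearly met. The mean in *tulp1*-dKO heads was 72.7% of that in wt heads, with a log2 fold change of −0.44 (SE 0.15, 95% interval −0.80 to −0.09, limma adjusted p = 0.201), which did not pass the test. Compared within a sample with its pigment epithelium copy, *rlbp1a* was higher than *rlbp1b* by 2.04 ± 0.21 on the log2 scale in *tulp1*-dKO samples and by 2.47 ± 0.29 in wt samples (SD, n = 3 each). The groups overlapped, and the difference of −0.43 did not pass the exact permutation test (p = 0.2, adjusted over 7 differences p = 0.28).

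Of 11 other Müller glia markers, which brain glia also express, none was called, and they summed to between 2963 and 3083 TPM in *tulp1*-dKO samples, against 2741 to 3032 TPM in wt samples. The largest part of this sum was *fabp7a*, at 1766 to 1912 TPM in *tulp1*-dKO samples and 1565 to 1777 TPM in wt samples. How much of these levels in whole heads came from Müller glia was not measured. *glula*, glutamine synthetase, was at 385, 354 and 398 TPM in *tulp1*-dKO samples, against 486, 496 and 425 TPM in wt samples (log2 fold change −0.31, SE 0.08, limma adjusted p = 0.131). *gfap*, a glial filament gene, was at 21.3, 16.3 and 16.1 TPM in *tulp1*-dKO samples, against 10.5, 12.6 and 11.8 TPM in wt samples (log2 fold change 0.61, SE 0.14, limma adjusted p = 0.0954). The groups did not overlap for either of these genes, and their values lay on opposite sides of wt. *kcnj10a*, also without overlap, lay above wt, at 5.92, 6.36 and 5.45 TPM in *tulp1*-dKO samples, against 4.21, 5.35 and 3.41 TPM in wt samples (log2 fold change 0.46, SE 0.19, limma adjusted p = 0.269). Thus 1 of the 11 markers lay wholly below wt and 2 wholly above, and the groups of the others overlapped. Of all genes tested, 8.86% lay wholly below and 14.6% wholly above wt.

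*rpe65b* (ENSDARG00000094752), a paralog of *rpe65a*, was the only gene of the 10 whose *tulp1*-dKO values all lay above the wt values. It was at 26.9, 31.1 and 26.2 TPM in *tulp1*-dKO samples, against 24.5, 20.02 and 24.99 TPM in wt samples. The gap between the groups was small, and the log2 fold change of 0.28 (SE 0.12, 95% interval −0.02 to 0.57, limma adjusted p = 0.319) did not pass the test. The log2 level of *rpe65a* exceeded that of *rpe65b* by 0.81, 0.49 and 0.06 in *tulp1*-dKO samples, against 0.78, 0.92 and 1.14 in wt samples. The groups overlapped through *tulp1*-dKO sample 1, and the difference of −0.49 did not pass the exact permutation test (p = 0.2, adjusted over 7 differences p = 0.28). The remaining paralog *rpe65c* was at 2.66, 2.64 and 2.27 TPM in *tulp1*-dKO samples, against 3.32, 3.13 and 2.55 TPM in wt samples, a log2 fold change of −0.24 (SE 0.18, limma adjusted p = 0.576). RefSeq (assembly GRCz12tu, matched by name) places *rpe65b* and *rpe65c* next to each other on chromosome 8, with 0 genes between them, and *rpe65a* on chromosome 2. How reads were shared among the paralogs was not measured here.

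The order of the levels differed between the groups in the upper ranks. In *tulp1*-dKO heads *rbp4l* (285 TPM) was followed by *rlbp1a* (66.5 TPM), *rbp3* (53.2 TPM) and *rpe65a* (39.4 TPM), and the ranges of *rlbp1a* and *rbp3* and those of *rbp3* and *rpe65a* overlapped. In wt heads *rbp4l* (450 TPM) was followed by *rbp3* (191 TPM), *rlbp1a* (91.4 TPM) and *rpe65a* (45.1 TPM), and the ranges of these 4 genes did not overlap each other. Below them, *rpe65a*, *rgra* and *rdh8a* overlapped wherever they stood next to each other in either group, and so did *rlbp1b* and *rdh8b*. *rdh5* was the lowest in both groups, at 4.30 ± 0.84 TPM in *tulp1*-dKO heads and 5.91 ± 0.98 TPM in wt heads.

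The other genes that make, bind and break down retinoids were followed as 6 lists with 57 names, of which 50 were listed and 49 were tested. None of the 49 was called in either direction, and 8 (16.3%) had an unadjusted limma p of at most 0.05, where 17.1% of all genes tested did. Their median log2 fold change was 0.06. All *tulp1*-dKO values were above all wt values in 7 genes (14.3%, against 14.6% of all genes tested) and below them in 1 gene (2.04%, against 8.86%), so the share above wt was that of genes in general.

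Retinyl ester synthesis held both directions. *lratb.2* and *lrata* are copies of the gene for lecithin retinol acyltransferase, which esterifies retinol for storage and for Rpe65. *lratb.2* was at 2.51, 1.23 and 1.16 TPM in *tulp1*-dKO samples, against 3.13, 4.27 and 3.67 TPM in wt samples (log2 fold change −1.20, SE 0.32, limma adjusted p = 0.122). Without *tulp1*-dKO sample 1 it was −1.54 with a limma adjusted p of 0.045, the lowest of 17 alternatives, which reached 0.298. The smallest change among these alternatives was −0.86. *lrata* was at 5.35, 4.33 and 4.45 TPM in *tulp1*-dKO samples, against 3.13, 1.72 and 3.59 TPM in wt samples (log2 fold change 0.78, SE 0.28, limma adjusted p = 0.219). The third copy, *lratb.1*, overlapped between the groups, at 8.91 to 9.85 TPM in *tulp1*-dKO samples and 8.90 to 10.04 TPM in wt samples.

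Among genes for retinol uptake and binding, *stra6*, the cell surface receptor through which retinol enters from its plasma carrier, was at 10.4, 9.48 and 9.88 TPM in *tulp1*-dKO samples, against 5.88, 6.06 and 7.54 TPM in wt samples (log2 fold change 0.61, SE 0.135, limma adjusted p = 0.0809). *rbp5*, a cellular retinol-binding protein gene, was at 66.9, 69.1 and 67.3 TPM in *tulp1*-dKO samples, against 48.0, 56.5 and 44.1 TPM in wt samples (log2 fold change 0.46, SE 0.11, limma adjusted p = 0.0883). Both sets of *tulp1*-dKO values lay within a narrow range above wt, and neither gene passed the test. *rbp7b*, another gene of this family, was low and variable, at 3.43, 2.70 and 2.82 TPM in *tulp1*-dKO samples, against 0.37, 2.42 and 1.08 TPM in wt samples (limma adjusted p = 0.252). *rbp4*, the plasma carrier that the liver secretes, was at 569, 625 and 997 TPM in *tulp1*-dKO samples, against 609, 691 and 391.8 TPM in wt samples. The 7 liver markers summed to 819, 1472 and 2051 TPM in the same *tulp1*-dKO samples, against 1351, 1849 and 1479 TPM in wt samples, none of them was called, and their part in the level of *rbp4* was not tested.

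None of the 15 genes tested in the list of retinol and retinal dehydrogenases was separate between the groups, and their log2 fold changes lay between −0.49 and 0.22. The ends of this range were *cyp27c1* and *retsat*, which are in the list but are not dehydrogenases. The others lay between −0.37 (*rdh20*) and 0.12 (*sdr16c5b*). *cyp27c1*, the enzyme that makes vitamin A2 from vitamin A1, was at 6.03, 4.76 and 4.43 TPM in *tulp1*-dKO samples, against 8.60, 8.79 and 4.76 TPM in wt samples. *rdh10a* and *rdh12*, which act on retinol and retinal in several cell types, overlapped between the groups, at 40.9 to 51.3 TPM and 22.5 to 32.2 TPM in *tulp1*-dKO samples and at 44.1 to 54.9 TPM and 29.4 to 32.5 TPM in wt samples. The disc flippase genes *abca4a* and *abca4b*, which clear retinal from outer segment discs, overlapped as well, at 5.99 to 7.0 TPM and 7.69 to 10.8 TPM in *tulp1*-dKO samples and at 6.18 to 8.35 TPM and 8.69 to 11.04 TPM in wt samples. *rrh*, the peropsin gene of the pigment epithelium, was at 4.4, 4.23 and 5.01 TPM in *tulp1*-dKO samples, against 2.43, 3.83 and 3.46 TPM in wt samples (log2 fold change 0.50, SE 0.20, limma adjusted p = 0.272). *degs1*, a dihydroceramide desaturase that in chicken also isomerises retinol, was at 55.8, 53.6 and 51.2 TPM in *tulp1*-dKO samples, against 39.9, 46.1 and 41.5 TPM in wt samples (log2 fold change 0.33, SE 0.09, limma adjusted p = 0.127). *bco2l*, a carotenoid oxygenase gene, was at 1.86, 1.84 and 4.39 TPM in *tulp1*-dKO samples, against 1.15, 1.26 and 0.96 TPM in wt samples (limma adjusted p = 0.204). The groups did not overlap for these last 3 genes. None of the 5 retinoic acid genes was separate between the groups, with log2 fold changes between −0.17 and 0.575.

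**Figure D4:**
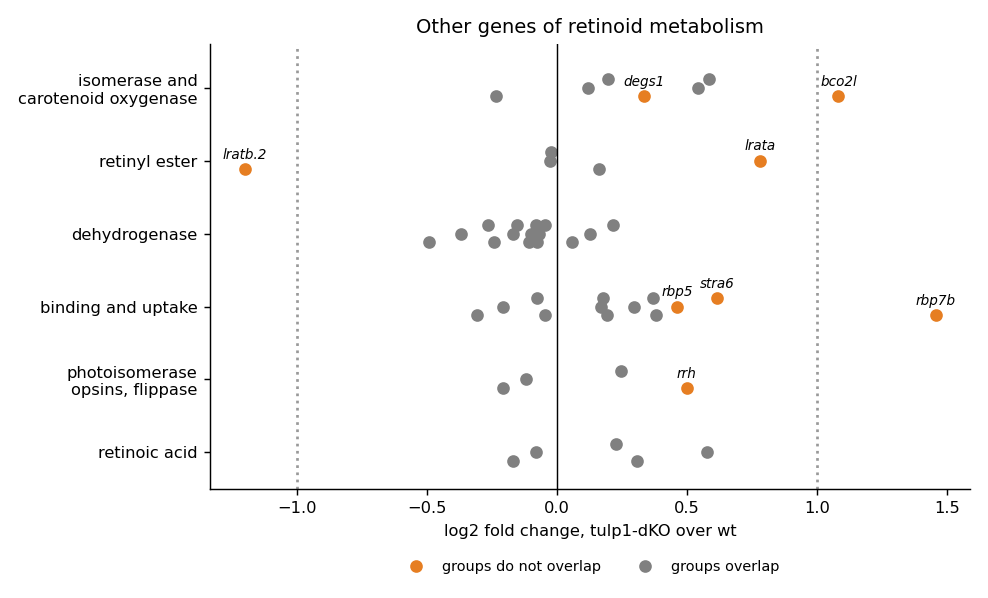
Log2 fold change, *tulp1*-dKO over wt, of 49 other genes of retinoid metabolism in 6 lists, with genes whose groups do not overlap in orange and named, and the 2-fold thresholds dotted. 7 of these orange genes lie above 0 and 1, *lratb.2* at −1.20, lies below, shares of 14.3% and 2.04% where all genes tested had 14.6% and 8.86%, and none of the 49 was called.

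The pineal gland, a light-sensing organ that also uses opsins, is part of the dissected head. Of 7 pineal markers tested none was called, and they summed to between 86.3 and 103 TPM in *tulp1*-dKO samples, against 87.6 to 93.7 TPM in wt samples. The largest part of this sum was *otx5*, at 42.8 to 50.3 TPM in *tulp1*-dKO samples and 46.1 to 55.95 TPM in wt samples. The log2 fold changes of single markers lay between −0.68 and 2.12, with a median of −0.17. The lowest was that of *asmt*, whose groups overlapped (limma adjusted p = 0.345). *exorh*, the pineal opsin, was at 11.9, 8.71 and 7.35 TPM in *tulp1*-dKO samples, against 12.0, 8.95 and 9.48 TPM in wt samples. *aanat2*, the pineal enzyme of melatonin synthesis, was the exception in size, at 12.3, 14.1 and 30.9 TPM in *tulp1*-dKO samples, against 3.29, 6.39 and 2.95 TPM in wt samples (log2 fold change 2.12, SE 0.41, limma adjusted p = 0.057).

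The genes most like a given gene were found by the root mean square difference of their deviations from the wt mean over the 6 samples (log2 scale, genes whose average reached 5 TPM). For *rbp3* these were *endouc* (0.09), at 9.93 TPM in *tulp1*-dKO heads and 33.5 TPM in wt heads, *sagb* (0.10), an arrestin gene that is also among the rod markers, at 62.6 TPM in *tulp1*-dKO heads and 239 TPM in wt heads, and *pdca* (0.12), a phosducin gene, at 3.60 TPM in *tulp1*-dKO heads and 12.6 TPM in wt heads. Since they were picked for following *rbp3* in all 6 samples, their lower level in *tulp1*-dKO heads comes with the choice. For *rlbp1a* they were *zgc:55733* (0.05), *zfand5a* (0.06) and *isca2* (0.06), and for *rpe65a* they were *BX537263.5* (0.07), *SLC4A5* (0.10) and *znf1167* (0.10). These were picked in the same way.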

How the data were processed

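The heads of wt and *tulp1*-dKO larvae, 3 samples each, were sequenced on an Illumina NovaSeq instrument. According to the methods and processing notes of the study, the authors mapped the reads to GRCz11 with HISAT2, used RSEM to count reads for each gene, converted these to TPM and deposited the TPM values, to 2 decimals. Tool versions and the annotation release are not given in the sources used here. Because TPM is no read count, the count test of the study was not run.

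Groups follow the sample titles and genotypes. Genes averaging 0.5 TPM or more (22824) entered a limma fit (version 3.58.1, R 4.3.3, eBayes with trend, all 6 samples) of log2(TPM + 0.1), with Benjamini-Hochberg adjustment over all of them. A fold change on this scale understates changes of genes with low TPM. Calls required adjusted p ≤ 0.05 together with a log2 fold change of 1 or more in size. On data simulated from these samples, the fit called 17 of 49 genes changed by 1 on the log2 scale, 46 of 50 changed by 1.5, 49 of 50 changed by 2 and 46 of 49 changed by 3. There were 5 false calls among the unchanged ones of the 22543 genes tested. Errors were normal, each gene's variance was averaged with the median one, and only genes averaging 2 TPM or more were changed. Genes more variable than the median were therefore simulated with less spread than they have. Differences within a sample were compared by exact two-sided permutation tests (scipy 1.17.1, Python 3.11.15). Alternatives were other pseudocounts, filters, scalings and eBayes settings, a replicate block, summed entries of a name, other thresholds and each sample left out.

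An alternative that takes each marker relative to its own wt mean was added after the data were seen. The genes named are the 10 of the cycle, the targeted genes, the called genes and the 3 of smallest p of each list, and the 3 most alike genes, with others named to complete a family or said to be chosen later. Not every gene this takes from the marker lists is described. The members and the lists were chosen with earlier results of these data known. Protein and promoter sequences were not analysed here.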

Additional observations from a re-analysis of the deposited data

How the results depend on the processing

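*rbp3* remained the 1 visual cycle gene called lower, with 0 called higher, under all 17 alternatives of the fit, with log2 fold changes between −1.99 and −1.75 and limma adjusted p values between 0.00172 and 0.021. The same counts came with an adjusted p and no minimum fold change, and with an unadjusted p and the same minimum fold change. The count over all genes, 219 lower and 83 higher, moved more. It was 104 lower and 30 higher with the replicate block, and 555 lower and 395 higher with an unadjusted p and the same minimum fold change. With an adjusted p and no minimum fold change it was 153 higher. With 1 sample left out it lay between 75 and 183 lower and between 22 and 87 higher, and it moved by over 1.5 times without wt sample 1 (75 lower and 29 higher), wt sample 2 (101 and 36), *tulp1*-dKO sample 2 (114 and 22), *tulp1*-dKO sample 1 (53 higher) and *tulp1*-dKO sample 3 (46 higher). The titles share replicate numbers, but nothing says that a number marks a shared clutch or day. Deviations from the group mean of same-numbered samples correlated at 0.029 to 0.032 across genes and those of other pairs at −0.021 to −0.01, so every sample correlated best with its own number. The deviations within a group cancel, so these matches depend on each other. Such small values cannot decide whether the numbers mark pairs. The replicate block changed no call among the visual cycle genes. The count of rod and cone markers called lower, 18 of 26, was 13 with the replicate block, 11 without the eBayes trend and 9 to 17 with 1 sample left out.

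Genes near 0 changed sign with single samples. *rpe65a* lay between −0.37 and 0.03 with 1 sample left out, 0.03 without *tulp1*-dKO sample 3 and *rlbp1b* between −0.05 and 0.05, the higher value without *tulp1*-dKO sample 1. *rdh8a* lay between −0.08 and 0.03, at 0.03 without wt sample 1 and 0.00 without *tulp1*-dKO sample 2, and *rdh8b* between −0.22 and 0.17, at 0.17 without wt sample 3 and 0.00 without *tulp1*-dKO sample 3. *best1* was at −0.19 without wt sample 1 and −0.13 without *tulp1*-dKO sample 3, and *BX537263.5* between −0.28 and 0.08, at 0.00 without wt sample 3 and 0.08 without *tulp1*-dKO sample 3. The difference of *rdh8a* minus *rdh8b* lay between −0.26 and 0.20 with 1 sample left out, −0.26 without wt sample 3 and −0.04 without *tulp1*-dKO sample 3. The differences of *rdh8a* and *rdh8b* from the markers kept their sign, at 0.72 to 1.17 and 0.76 to 1.29, while that of *rbp4l* lay between 0.02 and 0.62. The unknown depth limits the genes at low TPM, such as *best1*.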
